A study of Mus musculus with 8 samples.

Results

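The proteasome is the barrel-shaped protease that destroys proteins tagged with ubiquitin. Its genes were taken as all genes of the deposited mouse expression table whose symbol starts with Psm, followed by a letter from a to g and a number. This rule found 46 genes of 22744, on 16 chromosomes, and it used no measured value. The genes of 2 further subunits that carry such symbols, Psmb9 (an inducible catalytic subunit) and Psmb11 (the thymic catalytic subunit), were not analysed here. All 46 genes passed the filter on low values (a mean log2 CPM of 0 or more, where CPM is the read count scaled to library size), as did 16634 genes in all.

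The core of the proteasome, the 20S particle, is a stack of rings: outer rings of alpha subunits form the gate, and inner rings of beta subunits hold the active sites facing the inner chamber. The 19S regulatory particle caps the core to make the 26S proteasome; its ATPases unfold the substrate and thread it in, and its non-ATPase subunits bind ubiquitin chains and cut them off. Other caps and subunits exchange with these: inducible catalytic subunits replace the constitutive ones in immune cells and after interferon, and germ cells of the testis are known for an alpha subunit of their own, Psma8, and for the activator Psme4 (PA200). Assembly chaperones build the rings and leave the finished particle.

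RNA came from whole testes of C57BL/6 mice at postnatal day 8, in 3 Dmrt6 null and 3 wild-type libraries that the design text calls biological replicates, without saying whether a library is 1 animal. DMRT6, a DNA-binding protein of the doublesex family whose gene the table calls Dmrtb1, was also immunoprecipitated with chromatin (ChIP) from adult wild-type testis of a C57BL/6, Mixed background, in 1 ChIP and 1 input library, with a rabbit polyclonal antibody. The labels do not describe the null allele. Since the expression and binding samples differ in age, values from the one are set beside the other only as a description.

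The 6 RNA libraries held 26.2 to 27.4 M reads in null and 23.8 to 29.0 M in wild type. Dmrtb1 stood at -0.88, -0.13 and 0.03 log2 CPM in the null libraries, against 3.03, 4.12 and 3.21 in wild type, with no overlap (difference -3.78 ± 0.36, limma adjusted p = 0.0516), the order the labels give. The germ cell gene Dazl lay between 9.14 and 9.25 log2 CPM in every library. Spermatid genes were low: Prm1 lay at -2.63 or below, and Tnp1 between -1.42 and -0.24 (10 to 20 reads a library). Null replicate 3 stood apart from the other libraries, at -54.3 on the first principal component of all tested genes (44.8% of the variance), where the other 5 lay between -1.68 and 20.2. On the second component (22.5% of the variance) wild-type replicate 3 was the farthest out, at 36.0. The other 5 lay between -21.4 and 2.64 there. The counts and medians given for proteasome and pathway genes are also given without null replicate 3. Those of all members and of the constitutive subunits are given without wild-type replicate 3 as well.

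No proteasome gene differed between Dmrt6 null and wild-type testes at the threshold of the test (limma on the log2 CPM, adjusted p below 0.05 over all tested genes): 0 of 46 passed, against 0.00601% of all tested genes (1 gene), and the smallest adjusted p of a member was 0.755. Dmrtb1 itself did not pass this threshold (difference -3.78, limma adjusted p = 0.0516), so the test could miss even a large difference. The 0 of 46 therefore does not show that these genes were unchanged. At an unadjusted p below 0.05 the count of members was also 0 of 46, against 3.47% of all tested genes. The fitted differences were small and mostly of one sign: 40 of 46 were lower in null, against 48.3% of all tested genes, with a median difference of -0.14 log2 units, against 0.01 over all tested genes. In 44 of 46 genes the difference was within 0.25 log2 units, with a median standard error of 0.11. Without null replicate 3, 38 of 46 were lower and the median was -0.07. The difference then shrank by over 1.5 times or turned its sign in 34 of 46 genes. Without wild-type replicate 3, 40 of 46 were lower and the median was -0.11.

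**Figure D1:**
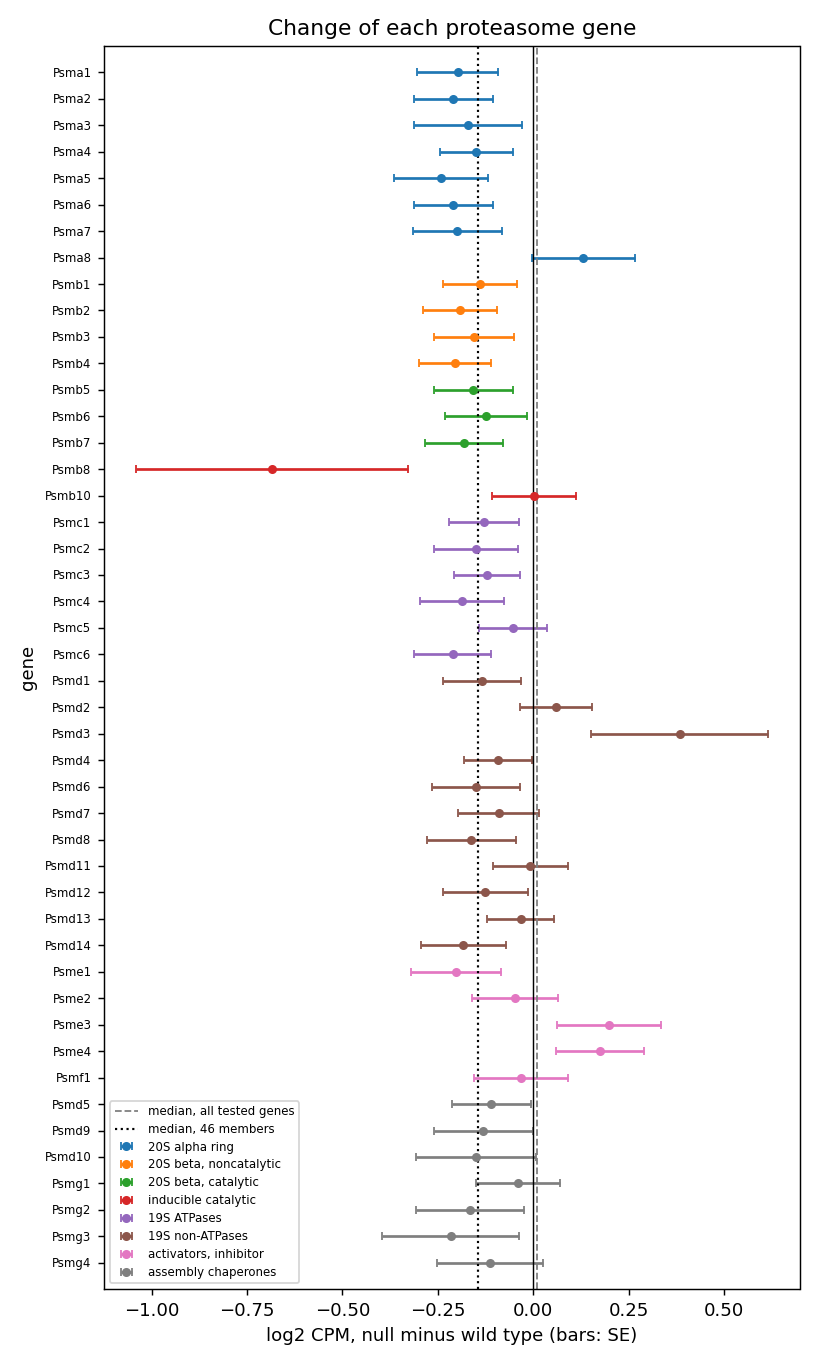
Difference in log2 CPM, Dmrt6 null minus wild type, for each of the 46 proteasome genes, with the standard error of the limma fit (3 libraries a genotype); colours give the subunit group, the dotted line the members' median (-0.14) and the dashed line the median of all tested genes (0.01). Most points lie between -0.25 and -0.1 (31 of 46), Psmb8 stands far to the left at -0.69 with the longest bar, and Psmd3 farthest to the right at 0.38.

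The same pair of libraries held the ends of the range for most genes. Null replicate 3 was the lowest of the 6 libraries for 35 of 46 proteasome genes (34.0% of all tested genes), and wild-type replicate 3 was the highest for 28 of 46 (17.3% of all tested genes). Among the 5440 tested genes with a mean log2 CPM of 5.63 to 8.85, where 36 of the 46 lay, these shares were 43.3% and 19.9%. The median log2 CPM of the 46 genes was 6.88, 6.93 and 6.76 in null replicates 1, 2 and 3, against 6.91, 7.00 and 7.02 in wild-type replicates 1, 2 and 3. Null replicate 3 was the lowest and wild-type replicate 3 the highest, while null replicate 2 lay above wild-type replicate 1, so the genotypes overlapped; the SD of these medians within a genotype averaged 0.07. In whole testis, fewer cells of a type and less RNA per cell cannot be told apart.

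**Figure D2:**
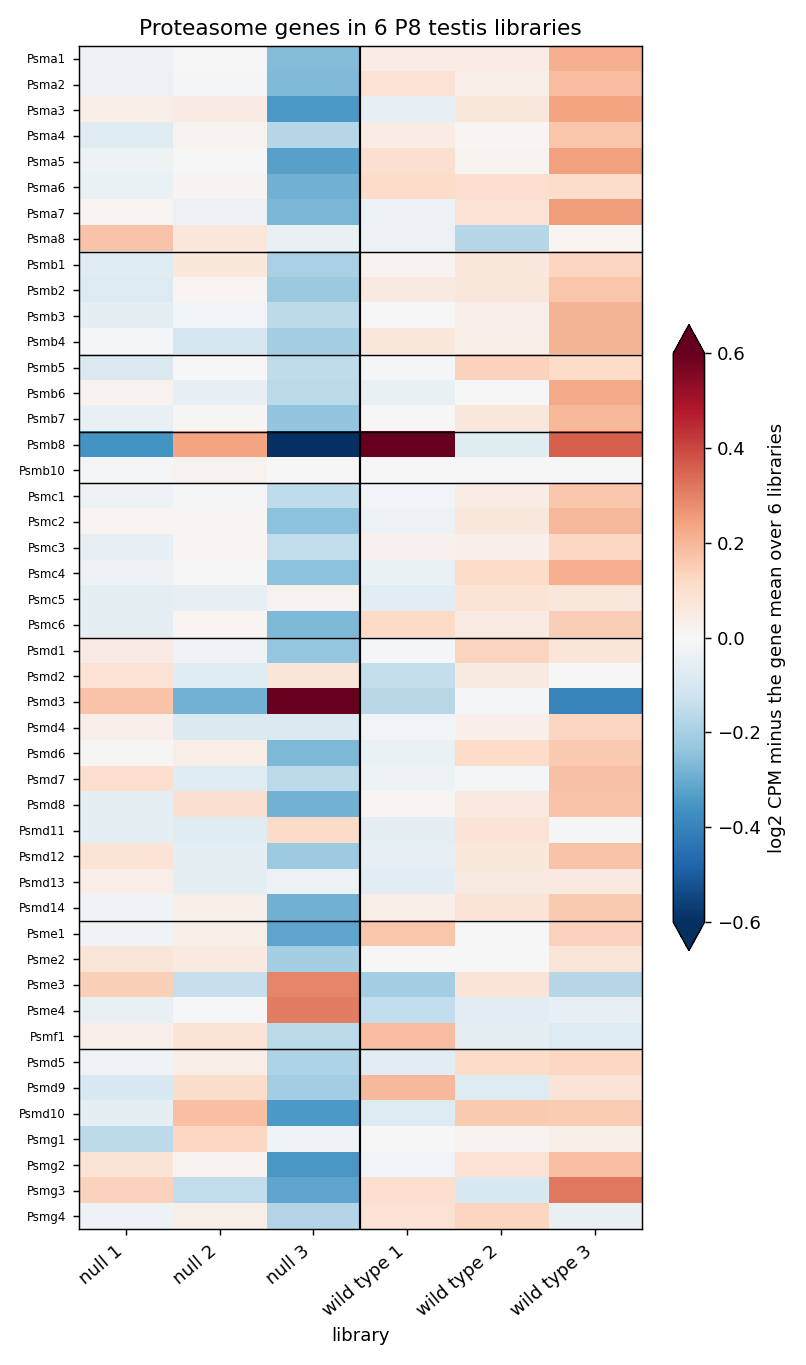
Each of the 46 genes (rows, grouped by role) in each library (columns, null left of wild type), as log2 CPM minus that gene's mean over the 6 libraries; colours saturate at 0.6 in either direction. The column of null replicate 3 is blue for most genes (lowest in 35 of 46) and that of wild-type replicate 3 red (highest in 28 of 46), while Psmd3, Psme3 and Psme4 are reddest in null replicate 3.

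The 31 constitutive subunits of the 26S particle (the alpha and beta rings without Psma8 and the inducible subunits, the ATPases and the non-ATPases) were also described as 1 list. Of these, 29 were lower in null, with a median of -0.15, against 51.5% lower and a median of -0.01 among the 5440 tested genes in the same range of mean log2 CPM (5.63 to 8.85). Without null replicate 3, the same count of 29 of 31 were lower, with a median of -0.08, against 49.1% of the genes in that range. Without wild-type replicate 3, 29 of 31 were again lower, with a median of -0.11, against 51.0% of the genes in that range. Their summed level was 4641, 4579 and 4188 CPM in null replicates 1, 2 and 3, against 4616, 4834 and 5106 CPM in wild-type replicates 1, 2 and 3. The sum in null replicate 1 was above that in wild-type replicate 1, so the groups overlapped.

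For 10 genes all null libraries lay below all wild-type libraries, a pattern held by 6.02% of all tested genes: Psma1, Psma2, Psma5 and Psma6 of the alpha ring, Psmb2, Psmb3 and Psmb4 of the beta ring, the ATPases Psmc3 and Psmc6, and the deubiquitinase Psmd14. All 10 are constitutive subunits, and none passed the test. Of the 46 genes, only Psme4 lay wholly above, where 5.06% of all tested genes did. Without null replicate 3, the counts were 11 below (8.40% of all tested genes) and 2 above, Psma8 and Psme4 (8.49%). The counts of lower genes given next for the rings, the ATPases, the non-ATPases and the chaperones were the same without that library, but the medians came closer to 0: -0.11 for the alpha ring, -0.12 for the beta subunits without an active site, -0.11 for the catalytic ones, -0.08 for the ATPases, -0.05 for the non-ATPases and -0.05 for the chaperones.

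In the alpha ring, 7 of 8 genes were lower in null, with a median of -0.20; the 8th is Psma8, described below. Psma6, a ring subunit, stood at 7.19, 7.25 and 6.94 log2 CPM in null libraries, against 7.34, 7.33 and 7.34 in wild type. The wild-type values were nearly equal and all above the null ones, and the difference was -0.21 ± 0.10 (SE; limma adjusted p = 0.755). Psma2, its neighbour in the ring, stood at 6.79, 6.82 and 6.57 in null libraries, against 6.92, 6.87 and 7.02 in wild type, again without overlap, with a difference of -0.21 ± 0.10. Psma3 stood at 6.03, 6.05 and 5.65 in null, against 5.95, 6.07 and 6.23 in wild type, so that the groups overlapped; the difference was -0.17 ± 0.14. The difference was -0.24 for Psma5, the largest of the ring, -0.20 for Psma1 and Psma7, and -0.15 for Psma4, whose tail closes the gate.

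All 4 beta subunits without an active site were lower in null, with a median of -0.17. Psmb4 had the smallest unadjusted p of all members (0.0636, limma): it stood at 7.62, 7.53 and 7.43 in null, against 7.69, 7.66 and 7.83 in wild type, a difference of -0.20 ± 0.10. Its null libraries were all below its wild-type ones. Psmb2 stood at 6.85, 6.94 and 6.71 in null, against 6.99, 7.00 and 7.10 in wild type, without overlap (difference -0.19 ± 0.10). Psmb1 stood at 7.41, 7.54 and 7.28 in null, against 7.50, 7.54 and 7.61 in wild type, with overlap (difference -0.14 ± 0.10), and the difference of Psmb3 was -0.15 ± 0.10.

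The 3 constitutive catalytic subunits, which carry the chymotrypsin-like (Psmb5), caspase-like (Psmb6) and trypsin-like (Psmb7) activities, were all lower in null, with a median of -0.16. Psmb5 stood at 5.54, 5.63 and 5.48 in null, against 5.62, 5.77 and 5.74 in wild type. Psmb6 stood at 7.18, 7.11 and 7.00 in null, against 7.12, 7.16 and 7.39 in wild type. Psmb7 stood at 7.69, 7.74 and 7.49 in null, against 7.73, 7.80 and 7.93 in wild type. In each of the 3 genes the highest null library lay above the lowest wild-type library, so the groups overlapped; the differences were -0.16 ± 0.10, -0.12 ± 0.11 and -0.18 ± 0.10.

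All 6 ATPases were lower in null, with a median of -0.14. Psmc6 stood at 7.36, 7.43 and 7.14 in null, against 7.54, 7.46 and 7.56 in wild type, without overlap (difference -0.21 ± 0.10). Psmc4 stood at 6.89, 6.92 and 6.68 in null, against 6.88, 7.03 and 7.13 in wild type, and Psmc2 at 7.14, 7.14 and 6.88 in null, against 7.10, 7.20 and 7.33 in wild type. Both overlapped between genotypes, with differences of -0.19 ± 0.11 and -0.15 ± 0.11. The other ATPases had differences of -0.13 (Psmc1), -0.12 (Psmc3) and -0.05 (Psmc5).

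Of the 11 non-ATPase subunits, 9 were lower in null, with a median of -0.09. Psmd14, which cuts ubiquitin chains off the substrate, stood at 6.58, 6.65 and 6.32 in null, against 6.65, 6.69 and 6.77 in wild type, a difference of -0.18 ± 0.11 with the groups just apart. Psmd7, the partner of Psmd14 in the lid, stood at 7.52, 7.35 and 7.26 in null, against 7.40, 7.42 and 7.60 in wild type, with overlap (difference -0.09 ± 0.11). The differences were -0.09 for the ubiquitin receptor Psmd4, between -0.16 and -0.13 for Psmd1, Psmd6, Psmd8 and Psmd12, and -0.03 and -0.01 for Psmd13 and Psmd11. Psmd2, the scaffold on which ubiquitin-like domains dock, had 0.06 ± 0.09. Psmd3 (chr11:98543868-98557293, plus strand, mm9), a scaffold subunit of the lid, had the largest positive difference of all members, 0.38 ± 0.23. It stood at 6.29, 5.84 and 6.81 in null, against 5.95, 6.11 and 5.72 in wild type, so that null replicate 2 lay within the wild-type range; the difference was 0.13 without null replicate 3 and 0.62 without null replicate 2.

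Psma8, the alpha subunit of meiotic germ cells that takes the place of Psma7, lies at chr18:14864660-14920808 on the plus strand (mm9). It stood at 4.20, 4.09 and 3.98 log2 CPM in null (482, 471 and 406 reads), against 3.99, 3.85 and 4.04 in wild type (378, 422 and 450 reads). The groups overlapped through wild-type replicates 1 and 3, and the difference was 0.13 ± 0.14 (limma adjusted p = 0.763). Psma7 itself stood at 7.41, 7.36 and 7.12 in null, against 7.36, 7.48 and 7.64 in wild type. Its difference was -0.20 ± 0.12, larger in size than that of Psma8. Without null replicate 3 the order turned, with differences of 0.19 for Psma8 and -0.11 for Psma7. Which gene moved their ratio more thus depended on that library. The log2 ratio of Psma8 to Psma7 reads was -3.21, -3.27 and -3.14 in null, against -3.37, -3.63 and -3.61 in wild type, with 3 of 3 null libraries above every wild-type one. The mean difference was 0.33 log2 units, with an exact two-sided permutation p of 0.1, the smallest that 3 against 3 libraries allow (0.15 adjusted over 3 such ratios, all chosen after the data were seen).

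Psmb8 (chr17:34334666-34338399, plus strand, mm9), the inducible counterpart of Psmb5, was the gene with the largest difference of any member, -0.69 ± 0.36, and the one with the fewest reads. It stood at 0.58, 1.17 and 0.03 log2 CPM in null (39, 62 and 26 reads), against 1.68, 0.86 and 1.29 in wild type (76, 53 and 67 reads). Null replicate 2 was above wild-type replicate 2, so the groups overlapped (limma adjusted p = 0.755). The difference was -0.40 without null replicate 3 and -0.98 without null replicate 2. Markers of macrophages and leukocytes, cells known to carry inducible subunits, were also lower in null for 10 of 11 genes (11 of 11 without null replicate 3), with summed levels of 167, 224 and 163 CPM in null, against 298, 188 and 221 CPM in wild type. In both, null replicate 2 was the highest null library and wild-type replicate 1 the highest of all; the part of these cells in the Psmb8 value was not tested. The log2 ratio of Psmb8 to Psmb5 differed by -0.53 (exact permutation p = 0.2, adjusted 0.2), with overlap.

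Psmb10 (chr8:108459628-108462292, minus strand, mm9), the inducible counterpart of Psmb7, had the smallest range of any member. It stood between 4.58 and 4.61 log2 CPM in every library (628, 673 and 618 reads in null, against 573, 703 and 661 in wild type), a range of 0.03, where counting error alone gives an SD of about 0.06 in 1 library. A range as small was found in 2 tested genes (0.0120%, Psmb10 included), and the next member was Psmd13 at 0.12; the median range was 0.39 over members and 0.57 over all tested genes. The log2 ratio of Psmb10 to Psmb7 was -3.11, -3.13 and -2.90 in null, against -3.14, -3.21 and -3.34 in wild type. It was higher in 3 of 3 null libraries, with a mean difference of 0.18 (exact permutation p = 0.1, adjusted 0.15). The difference of Psmb10 itself was 0.002 ± 0.11 and that of Psmb7 was -0.18 ± 0.10. The difference in the ratio thus lay almost wholly in Psmb7.

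**Figure D3:**
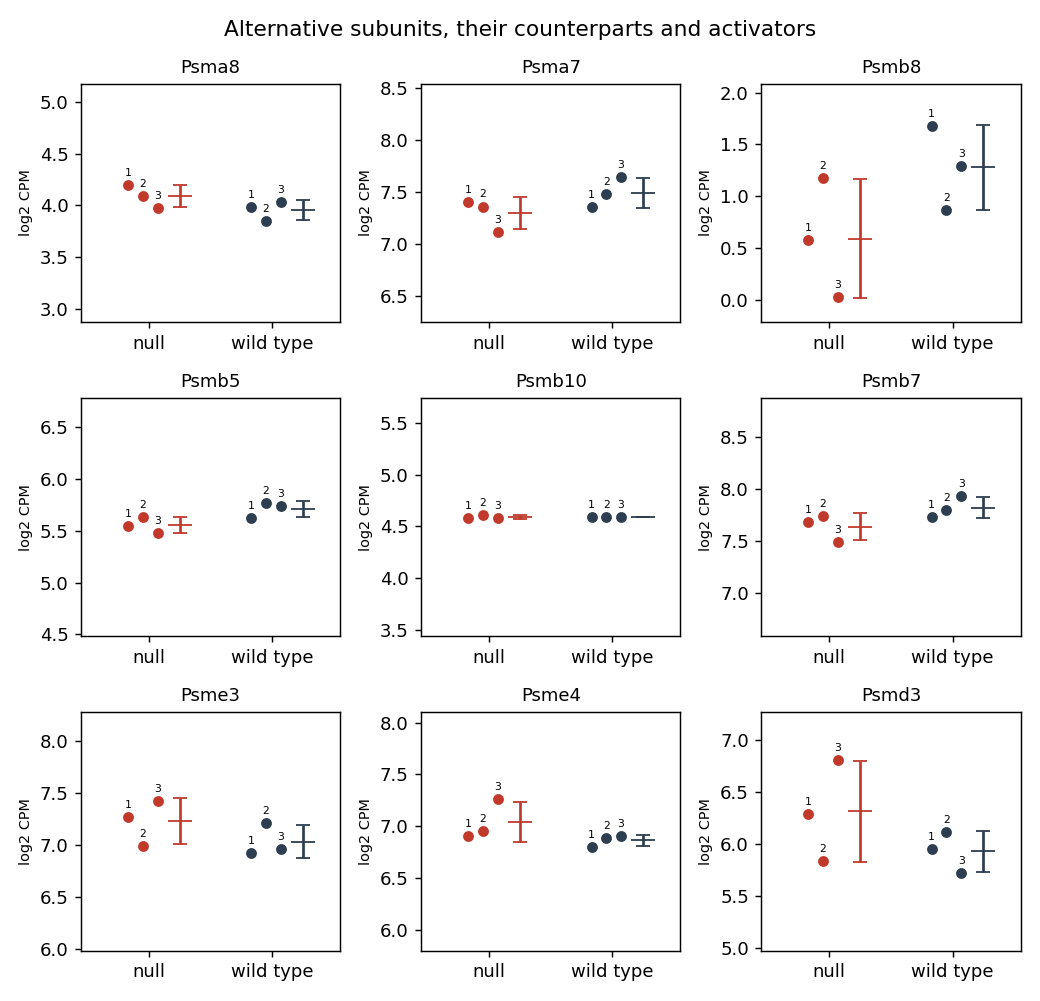
Log2 CPM of 9 genes in each library (points, labelled by replicate), null left of wild type, with the mean and SD of 3 libraries as bars; every panel spans the same range of log2 units. Psmb10 lies flat at 4.58 to 4.61 in all 6 libraries, Psmb8 scatters from 0.03 to 1.68, and null replicate 3 is the top point for Psme3, Psme4 and Psmd3.

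Among the activators and the inhibitor, 3 of 5 were lower in null, with a median of -0.03; without null replicate 3, 1 of 5 was lower (Psme1), with a median of 0.04. Psme1 and Psme2 form the interferon-inducible cap PA28. Psme1 stood at 6.88, 6.93 and 6.58 in null, against 7.07, 6.90 and 7.04 in wild type (difference -0.20 ± 0.12), and Psme2 at 5.74, 5.72 and 5.46 in null, against 5.67, 5.66 and 5.74 in wild type (difference -0.05 ± 0.11). Both overlapped between genotypes, and null replicate 3 was the lowest library in both. Psme2 is uncertain, since its near copy Psme2b-ps had 1820 to 2331 reads in null and 1805 to 2328 in wild type.

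The nuclear activator Psme3 (PA28 gamma) and the activator Psme4 had positive differences. Psme3 stood at 7.28, 7.00 and 7.43 in null, against 6.93, 7.21 and 6.96 in wild type, with overlap (difference 0.20 ± 0.14; 0.10 without null replicate 3 and 0.32 without null replicate 2). Psme4 (chr11:30671726-30780361, plus strand, mm9), known for the breakdown of acetylated histones in later male germ cells, stood at 6.91, 6.95 and 7.26 in null, against 6.81, 6.89 and 6.90 in wild type, with all null libraries above (difference 0.17 ± 0.11, limma adjusted p = 0.755). Most of that difference lay in null replicate 3; without it the difference was 0.06. Psmf1, an inhibitor of the core particle, stood at 5.59, 5.64 and 5.40 in null, against 5.74, 5.50 and 5.48 in wild type, a difference of -0.03 ± 0.12.

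All 7 assembly chaperones were lower in null, with a median of -0.13. Psmg1 and Psmg2 work as a pair in building the alpha ring. Psmg1 stood at 5.43, 5.72 and 5.57 in null, against 5.59, 5.62 and 5.63 in wild type (difference -0.04 ± 0.11), and Psmg2 at 5.50, 5.44 and 5.07 in null, against 5.41, 5.51 and 5.60 in wild type (difference -0.17 ± 0.14). Psmg3, of the second such pair, stood at 3.87, 3.59 and 3.42 in null, against 3.84, 3.64 and 4.05 in wild type (difference -0.22 ± 0.18). Psmd5, a chaperone of the ATPase ring, stood at 6.86, 6.92 and 6.70 in null, against 6.81, 6.99 and 7.01 in wild type (difference -0.11 ± 0.10). In all 4 genes the genotypes overlapped. The other ATPase ring chaperones, Psmd9 and Psmd10, had -0.13 ± 0.13 and -0.15 ± 0.16, and Psmg4, the partner of Psmg3, had -0.11 ± 0.14.

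Other genes of the pathway had differences of both signs. Of 25 tested proteasome partners outside the symbol rule (of 28 listed), 12 were lower and 13 higher in null, with a median of 0.08 and 0 past the test (adjusted or unadjusted); without null replicate 3, 8 were lower and the median was 0.03. Nfe2l1, the transcription factor that raises subunit genes when proteasome activity falls, stood at 7.51, 7.36 and 8.21 in null, against 7.26, 7.48 and 7.30 in wild type, with null replicate 3 far above the rest (difference 0.35 ± 0.21, and 0.09 without that library). The ubiquilins, which carry substrates to the proteasome, had differences of 0.62 ± 0.34 for Ubqln2, the largest of the list, and 0.34 ± 0.18 for Ubqln4; null replicate 3 was the highest library for both, and without it the differences were 0.25 and 0.12. The lid subunit Shfm1 had -0.22 ± 0.13 (-0.11 without null replicate 3).

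Of 6 tested genes for ubiquitin and its E1 enzymes, 3 were lower and 3 higher in null, with a median of -0.05 (4 lower and a median of -0.03 without null replicate 3). The difference was -0.15 ± 0.11 for the polyubiquitin gene Ubb, -0.21 ± 0.17 for Rps27a (a fusion of ubiquitin with a ribosomal protein) and 0.11 ± 0.13 for the E1 enzyme Uba1. Of 15 tested genes of antigen processing and interferon, 10 were lower and 5 higher, with a median of -0.06 (11 lower and a median of -0.12 without null replicate 3). Among these the difference was -0.71 ± 0.35 for the interferon-induced Ifit3, -0.35 ± 0.18 for the MHC light chain B2m, 0.38 ± 0.22 for the peptide loading factor Tapbp and -0.25 ± 0.16 for the receptor Ifngr1. Without null replicate 3 these were -0.46 for Ifit3, -0.17 for B2m, 0.13 for Tapbp and -0.12 for Ifngr1. In both lists 0 passed the test, adjusted or unadjusted.

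Markers of other cells were set beside these values. Red blood cell genes were lower in null for 5 of 5 with and without null replicate 3, with summed levels of 1255, 1179 and 717 CPM in null, against 1477, 1697 and 1776 CPM in wild type; like the proteasome genes, they were lowest in null replicate 3, and wild-type replicate 3 had the highest sum. Sertoli cell markers were the reverse: null replicate 3 was the highest library for 4 of 5 (34.5% of all tested genes), among them Sox9 at 5.86, 5.32 and 6.81 log2 CPM in null, against 5.45, 5.60 and 5.46 in wild type, and Gata4 at 7.15, 6.80 and 7.95 in null, against 7.33, 7.15 and 6.89 in wild type. With that library 4 of 5 were higher in null, and without it 1 of 5. Their summed level, 2277, 1760 and 2243 CPM in null, against 2079, 2000 and 2166 CPM in wild type, was mostly that of the fifth gene, Clu.

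Spermatogonial markers were higher in null for 5 of 7 (6 of 7 without null replicate 3), and null replicate 3 was the highest library for 4 of 7. The germ cell receptor Kit stood at 7.13, 7.03 and 7.43 log2 CPM in null, against 6.83, 7.00 and 6.71 in wild type (difference 0.35 ± 0.13), and the transcription factor Sohlh1 at 6.15, 6.02 and 6.48 in null, against 5.78, 5.97 and 5.69 in wild type (difference 0.40 ± 0.14). Both lay wholly above wild type and had an unadjusted limma p below 0.05, with and without null replicate 3, and neither passed the adjusted threshold. Markers of other cells reached that unadjusted level in the other direction, lower in null. These were 4 of 5 red blood cell genes, 2 of 11 macrophage and leukocyte genes, 1 of 4 endothelial genes and 1 of 5 Leydig cell genes. Without null replicate 3 these counts were 4, 1, 1 and 1. The endothelial gene was Tek (difference -0.52 ± 0.15) and the Leydig cell gene Hsd3b1 (-0.38 ± 0.12). The summed spermatogonial level was 1213, 1200 and 1316 CPM in null, against 1114, 1252 and 1139 CPM in wild type.

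Spermatocyte markers were lower in null for 3 of 5 (2 of 5 without null replicate 3) and summed to 186, 230 and 198 CPM in null, against 189, 231 and 193 CPM in wild type. Leydig cell markers were lower in null for 3 of 5 with and without null replicate 3, with sums of 601, 554 and 441 CPM in null, against 460, 714 and 583 CPM in wild type. Peritubular markers were lower for 2 of 3 (1 of 3 without null replicate 3), with sums of 1082, 1789 and 1115 CPM in null, against 1242, 1392 and 1186 CPM in wild type. Endothelial markers were lower for 3 of 4 (4 of 4 without null replicate 3), with sums of 140, 161 and 170 CPM in null, against 207, 158 and 169 CPM in wild type. The part of cell makeup in the proteasome values was not tested.

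Adult testis chromatin gave DMRT6 peaks at the 5' ends of some of these genes. Of 14862 peaks, at least 1 had its middle within 1 kb of the 5' end of 12 of 46 proteasome genes (26.1%), against 12.9% of all genes of the table and 24.0% of the tested genes in the range of mean log2 CPM of the constitutive subunits. Of the members in that range themselves, 11 of 36 had such a peak (30.6%), as did 9 of the 31 constitutive subunits (29.0%) and 1 of the 10 members below the range. Within 10 kb there were 14 of 46, against 27.9% of all genes of the table. With 1 ChIP library there is no replicate check on a peak.

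The 12 genes came from nearly every group: Psma3 of the alpha ring; Psmb1, Psmb2, Psmb5 and Psmb6 of the beta ring; the ATPases Psmc2, Psmc4 and Psmc6; Psmd7 of the lid; the activator Psme3; and the chaperones Psmd5 and Psmg1. Neither inducible subunit had one. The peak nearest the 5' end had its middle upstream in all 12, where this held for 57.1% of the 2930 table genes with a peak within 1 kb, and in 6 of 12 it lay within 100 bp, against 40.5% of those genes. Psmb1 had its middle 29 bp upstream (chr17:15635186-15635353, mm9), Psmc2 37 bp (chr5:21290933-21291195) and Psmb5 51 bp (chr14:55236814-55236991), while Psmb6 was the farthest at 386 bp (chr11:70338406-70338561).

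The scores of these peaks were low within the list. These scores, the authors' own values with no stated scale, were 53.3 to 139 with a median of 71.8, against a median of 94.7 over all peaks (50.0 to 3100), and 8 of 12 were below that median. The highest were at Psmc2 (139), Psmg1 (136, chr16:96212507-96212780) and Psma3 (127, chr12:72075379-72075606). Psmc2 is the only one of the 12 with another gene starting head to head within 1 kb, Dnajc2 at 32 bp, so its peak lies within 1 kb of both starts. Psmb1, Psmb6, Psmc2, Psmd7 and Psma3 each had further peaks within 10 kb, up to a score of 261 at 1618 bp upstream of Psmb1.

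**Figure D4:**
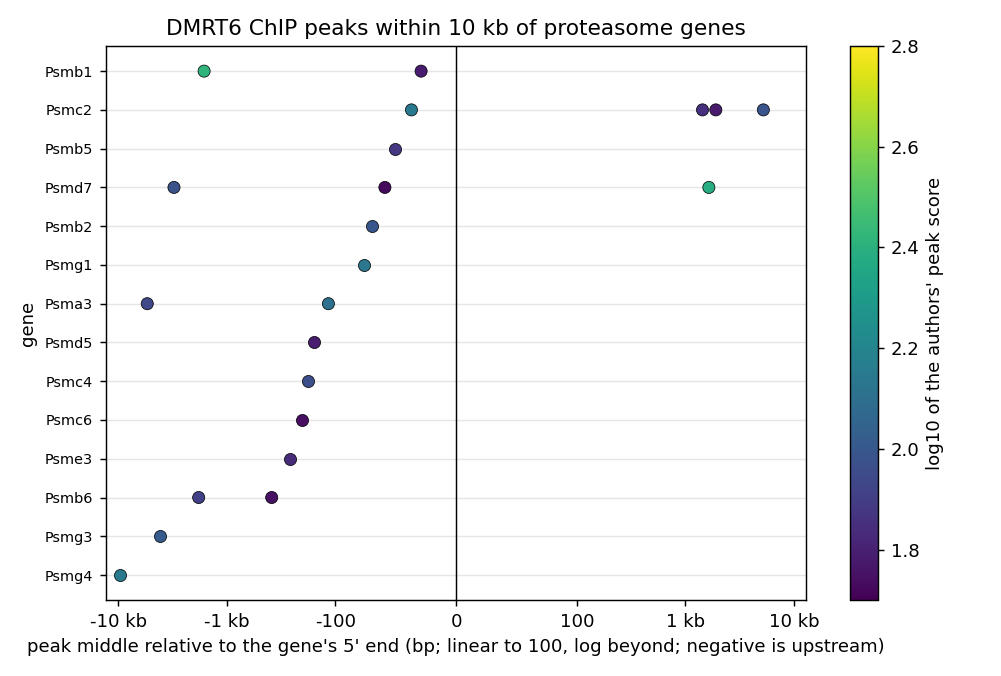
Middle of each DMRT6 peak within 10 kb of the 5' end of a proteasome gene (x axis in bp, linear to 100 and logarithmic beyond, negative upstream), coloured by log10 of the authors' peak score; 14 genes are shown. The 12 upper genes have their nearest peak between 29 and 386 bp upstream, and Psmg3 and Psmg4 have one only at 4080 and 9723 bp.

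The fitted differences were also set out by peak, without a test. The 12 genes with a peak within 1 kb had a median difference of -0.15, with 11 of 12 lower in null, and the 34 without one a median of -0.14, with 29 of 34 lower; without null replicate 3 both medians were -0.07. The 32 genes with no peak within 10 kb had their nearest at 10.8 to 555 kb. Psma8 was 58.3 kb from a peak, Psmb8 34.8 kb and Psmb10 41.1 kb. The highest-scoring nearest peaks belonged to Psmd3 (score 1504, 61.6 kb away) and Psmf1 (score 1113, inside the gene and 13.2 kb from its 5' end).

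Promoter sequence shows what stands at the starts of these genes. The 5 windows below belong to genes with a peak within 1 kb and show each motif that was searched; each runs 5' to 3' from 250 bases before to 50 bases after the start, from RefSeq on GRCm38.p6, a build other than the mm9 of the peaks, so the peaks are not placed on them. Capitals mark any searched motif on either strand. The windows are chr14:54617946-54618245, minus strand (Psmb5); chr11:70525107-70525406, plus strand (Psmb6); chr14:45329574-45329873, plus strand (Psmc6); chr11:101315963-101316262, plus strand (Psme3); and chr16:95990911-95991210, minus strand (Psmg1).
Psmb5: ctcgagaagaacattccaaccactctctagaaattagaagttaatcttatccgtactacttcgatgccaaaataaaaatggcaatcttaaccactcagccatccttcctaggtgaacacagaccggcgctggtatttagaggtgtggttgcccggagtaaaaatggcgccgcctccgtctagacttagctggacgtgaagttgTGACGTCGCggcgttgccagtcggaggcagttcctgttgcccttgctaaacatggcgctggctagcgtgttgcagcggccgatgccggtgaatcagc
Psmb6: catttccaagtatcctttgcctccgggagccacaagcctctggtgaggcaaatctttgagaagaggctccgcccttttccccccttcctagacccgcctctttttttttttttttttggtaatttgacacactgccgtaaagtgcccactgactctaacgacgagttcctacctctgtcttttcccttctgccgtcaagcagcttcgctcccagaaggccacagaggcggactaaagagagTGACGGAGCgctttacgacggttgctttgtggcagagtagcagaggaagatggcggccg
Psmc6: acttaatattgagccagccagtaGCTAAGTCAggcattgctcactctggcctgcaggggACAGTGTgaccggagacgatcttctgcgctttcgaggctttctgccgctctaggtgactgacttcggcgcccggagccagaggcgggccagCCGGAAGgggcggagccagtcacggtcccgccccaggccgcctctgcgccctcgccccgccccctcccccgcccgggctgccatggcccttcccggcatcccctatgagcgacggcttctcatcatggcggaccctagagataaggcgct
Psme3: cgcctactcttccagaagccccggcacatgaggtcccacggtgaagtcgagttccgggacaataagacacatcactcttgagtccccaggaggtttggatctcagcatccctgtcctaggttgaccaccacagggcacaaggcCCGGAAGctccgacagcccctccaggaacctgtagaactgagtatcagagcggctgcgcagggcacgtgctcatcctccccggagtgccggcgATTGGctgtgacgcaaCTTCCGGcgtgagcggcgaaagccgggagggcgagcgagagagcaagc
Psmg1: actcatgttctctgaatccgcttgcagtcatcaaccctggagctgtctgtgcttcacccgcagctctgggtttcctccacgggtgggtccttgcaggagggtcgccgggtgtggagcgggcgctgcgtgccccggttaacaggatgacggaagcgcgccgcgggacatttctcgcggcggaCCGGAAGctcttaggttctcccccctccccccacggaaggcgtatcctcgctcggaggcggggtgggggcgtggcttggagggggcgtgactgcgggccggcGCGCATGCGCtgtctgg

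Psmb5 and Psmb6 each held 1 antioxidant response element (TGACNNNGC), the kind of site through which Nfe2l1 acts, in their last 50 bases before the start. Psmc6 held the core of the DMRT site (ACANTGT, which reads the same on both strands), an antioxidant response element on the opposite strand and an ETS site (CCGGAAG). Psme3 held 2 ETS sites and a CCAAT box on the opposite strand, and Psmg1 held an ETS site and, past its start, 2 overlapping matches of the NRF1 core (CATGCGC), 1 on each strand.

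RefSeq windows matched 38 of the 46 genes, among them 9 of the 12 with a peak within 1 kb. The DMRT core was in 3 of 38 (7.89%, Psmc6, Psmd8 and Psmg3), against 8.62% of all 27025 genes of the promoter table, and in 1 of the 9 with a peak. The antioxidant response element was in 6 of 38 (15.8%), against 14.0% of all genes, and CCAAT in 12 of 38 (31.6%), against 41.1%. The ETS site was in 14 of 38 (36.8%), against 9.93% of all genes, and the NRF1 core in 5 of 38 (13.2%), against 4.41%. These shares are descriptions of letters in a window of 300 bases. Unlike for the peaks, no share among genes of like level was computed. The higher shares of the ETS site and the NRF1 core are thus not shown to be particular to proteasome genes.

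Some read counts may be shared with other genes, since the sources used here name neither a read counter nor a strand setting. Psmd13 holds Gm15542 on its own strand, which had up to 7811 reads in a library against at least 2865 for Psmd13. Psma3, Psmc3 and Psmd1 overlap 3110056K07Rik, Slc39a13 and Armc9, with at most 356, 718 and 1025 reads. The pseudogenes Psmb5-ps, Psmb6-ps and Psmb7-ps2 had at most 20 reads in any library.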

How the data were processed

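The authors deposited log2 CPM (log2 of counts scaled to library size, with a small prior) for 22744 genes in 6 RNA libraries, and a list of 14862 ChIP peaks with a score each, called with MACS 1.4 after removal of duplicates, per the file names. Per the submitters' processing notes, STAR 2.3.0e, Bowtie2, Picard and edgeR were used with genome build mm9; the role of each is not given in the sources used here. Libraries were TruSeq, per the labels' protocols.

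Differences are null minus wild type, fitted with limma 3.58.1 (lmFit and eBayes with trend, R 4.3.3) on the deposited log2 CPM of the 16634 genes with a mean of at least 0, two-sided, with Benjamini-Hochberg adjustment over all of them and a threshold of 0.05. The step was tested on simulated data. Whole reads were recovered from the steps of the values (100% whole at a relative tolerance of 1e-06); limits and reads cover counting error only. A gene's 5' end was taken from its outermost coordinate in the table, and distances run to the middle of a peak. Peak depth is unknown. Named are Psma8, the inducible subunits, activators and inhibitor, the 2 genes of smallest p in each group, the largest and smallest difference, and genes with a peak within 1 kb; of each neighbouring list, up to 4 of smallest p, of which 1 is not reported here. Levels were not compared between genes, since no lengths were used here.

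Members, lists and tests were chosen with earlier results of these data known; the subunit ratios and the comparison with genes of like level were added after the values were seen. Replicate numbers shared by the genotypes did not pair the libraries: deviations of same-numbered libraries correlated at -0.09, -0.22 and -0.04 across genes. The 14 alternatives were 2 other filters, a pseudocount of 1 CPM, 2 other scalings, array weights, the replicate block, voom on recovered reads and each library left out; for peaks, 3 other windows, a score of at least 100 and overlap with the gene body.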

Additional observations from a re-analysis of the deposited data

How the results depend on the processing

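In each of the 14 alternatives 0 of the 46 proteasome genes (45 under the stricter filter) passed the adjusted threshold, and more were lower than higher in null (35 to 41). Under the replicate block 0 passed, with a median of -0.14, so the block changed no call of a proteasome gene. No library correlated best with the library of its own number in the other genotype. At an unadjusted p below 0.05 the count was 16 with array weights, which gave null replicate 3 a weight of 0.153 and null replicate 1 one of 19.3 and passed 4716 of all genes. Leaving out 1 library at a time gave 0 to 6 genes at that level (6 without null replicate 2, when 2547 of all genes passed) and a median difference of -0.19 to -0.070 (-0.070 without null replicate 3). Median centring moved the median of all genes to -0.04, with 56.0% lower in null, and quantile normalization gave 54.1% lower; the proteasome genes then had 41 of 46 lower.

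Of 27 named genes, 21 kept their sign in every alternative. Psmb10 turned to -0.040 under quantile normalization, -0.045 under median centring, -0.0095 with array weights and -0.0059 with voom. With array weights Psme2 turned to 0.052, Psmf1 to 0.036, Psmg3 to 0.057 and Psmd7 to 0.054. Leaving out 1 library, Psmb10 ranged from -0.0069 to 0.0084, Psme2 from -0.097 to 0.042, Psmf1 from -0.082 to 0.051 and Psmg1 from -0.11 to 0.030. The cause was not tested. The count of genes with a peak, 14 within 10 kb, became 33 within 50 kb (61.7% of all genes), 7 at a score of at least 100 (14.3%) and 7 with a peak overlapping the gene body (24.9%).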
